A study of Mus musculus with 48 samples.

Results

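Grin3b, Aatk, Rnf145, Arfgap3 and Abhd17b are 5 genes that were selected for a large difference between high-fat diet and control diet in the livers of wild-type mice, out of 37074 gene names on the array and 22029 that were tested. All 9 array probes that the files assign to these genes were taken, of which 7 passed the filter on low signal. Because the diet difference in wild-type mice chose the genes, every value that involves wild-type mice is given as a description without a test, and the tests are those among mice that lack PPARα. The pattern over the 6 groups differed from gene to gene. Grin3b was higher on high-fat diet in all 3 genotypes, by 1.84, 1.41 and 1.44 on the log2 scale. Aatk had its highest mean in wild-type mice on high-fat diet. Rnf145, Arfgap3 and Abhd17b were highest in wild-type mice on control diet and lower in wild-type mice on high-fat diet.

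The 5 genes encode proteins with separate tasks. Grin3b encodes GluN3B, a glycine-binding subunit of NMDA-type glutamate receptors that is best known from motor neurons, and Aatk encodes a membrane-anchored kinase (also called LMTK1) first described in apoptosis and studied in neurons, where CDK5 phosphorylates it and it affects endosome traffic. Rnf145 encodes a sterol-sensing ubiquitin ligase of the endoplasmic reticulum, a target gene of the oxysterol receptors LXR that acts on SCAP, the escort of the SREBP transcription factors. Arfgap3 encodes a GTPase-activating protein that switches off ARF1 on Golgi membranes during the COPI vesicle cycle, and Abhd17b encodes a serine hydrolase that removes palmitate from membrane proteins such as N-Ras and PSD-95. PPARα, the receptor deleted in these mice, is a fatty acid-activated transcription factor that drives fatty acid oxidation in hepatocytes.

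The arrays held liver RNA of male C57BL/6J mice, 20 weeks old per the labels, in 6 groups of 8 mice. WT mice came from a supplier and were wild type at Pparα. In Pparα hep-/- mice (PPARaLKO in the labels) both Pparα alleles were floxed around exon 4 and an albumin-Cre transgene, which acts in hepatocytes, deleted that exon there, while the other liver cells kept the gene. Pparα-/- mice (PPARaKO) lacked it in the germline. Each genotype received either the control diet (CTRL) or a high-fat diet with 60% fat (HFD), for 12 weeks per the labels, and the study's text gives another duration. All 6 groups were housed at thermoneutrality. Each array is 1 mouse, and 8 mice a group set the precision of every value.

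The 48 arrays lay on 6 slides and were washed in 2 batches that each held mice of all 6 groups. Their median spot intensity ranged from 56 to 91, over a local background of 20 to 36, and between 28234 and 38217 spots per array were well above background, with 0 saturated spots. All 8 hepatocyte markers were well above background on all 48 arrays. Their log2 summed signal lay between 20.59 and 20.81. Quantile normalisation holds the strongest signals nearly equal between arrays, so this narrow range does not measure hepatocyte content. A pair of Ppara probes gave lower mean signal in both deleted genotypes, but their place relative to exon 4 was not determined, so they do not check the labels. Array weights, which lower the influence of arrays far from their group, ranged from 0.189 to 2.53. Of the 5 fixed white adipocyte markers, Adipoq and Plin1 were well above background on 2 and 6 of the 48 arrays, whereas Cfd (adipsin) had a median log2 signal of 14.18 in WT HFD and of 5.38 to 7.86 in the other groups. WT HFD replicates 1 and 2 stood apart from the other 6 mice of that group, with a log2 summed adipocyte marker signal of 8.73 and 8.75 against 13.91 to 15.52. Without these 2 arrays, an alternative chosen after the data were seen, the HFD differences of the 5 genes in WT became 1.93 for Grin3b, 2.60 for Aatk, -1.34 for Rnf145, -1.15 for Arfgap3 and -1.14 for Abhd17b.

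What an array reports for a gene is the signal of a 60-base probe, so the sequences are shown first. The opening 30 bases of the main probe of each gene, the tested probe with the highest mean signal, are given 5′ to 3′ in lower case, with the mm9 position of the whole probe as the files state it.
Grin3b A_51_P397934, chr10:79439842-79439901, plus strand: agagctgaggaactacacggccacactgtc
Aatk A_55_P2042156, chr11:119868694-119868753, minus strand: ttgggggtgggggcaatgttttctgttttg
Rnf145 A_51_P331870, chr11:44378746-44378805, plus strand: gcaccctttctttgacaaggatgtgtcata
Arfgap3 A_55_P2106922, chr15:83130262-83130321, minus strand: ggctgtgttttagacagctccagaatatat
Abhd17b A_51_P494541, chr19:21759606-21759665, plus strand: agaactgtagtagtcttccttatatgaata

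Whether these stretches are coding or untranslated was not looked up, since no mm9 annotation was used here. Aatk has 2 further probes that span exon junctions, printed whole with the 50 bases they share in capitals, because the shared stretch means that they are not independent measurements.
Aatk A_55_P2823758, chr11:119880160-119881348, minus strand: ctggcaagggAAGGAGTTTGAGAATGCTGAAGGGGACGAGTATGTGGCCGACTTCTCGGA
Aatk A_55_P2929634, chr11:119880152-119882720, minus strand: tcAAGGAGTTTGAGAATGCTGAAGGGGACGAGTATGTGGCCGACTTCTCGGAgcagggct

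The first of them was well above background on 2 of 48 arrays and the second on 0 of 48. The second is assigned to NM_007377, the same transcript as the main probe. Its raw intensity was 25 to 37 in WT CTRL and 24 to 40 in WT HFD, where the main probe read 179.5 to 847.5 and 572 to 3273. The diet difference of the main probe in WT was thus not seen at this probe, and the cause was not tested. Both junction probes were left out of the tests for low signal, and the values of Aatk come from 1 probe. Rnf145 has 2 further probes, which lie upstream of its main probe in the gene. A_55_P2500208 is assigned to the transcript NM_001166553 and the other 2 Rnf145 probes to NM_028862. The opening 30 bases of A_55_P2500208 and the whole of A_55_P2618144 are as follows.
Rnf145 A_55_P2500208, chr11:44368410-44368469, plus strand: ggtaagcagccagggctacttaagtgagat
Rnf145 A_55_P2618144, chr11:44362368-44362427, plus strand: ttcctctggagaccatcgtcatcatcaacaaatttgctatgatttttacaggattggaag

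**Figure D1:**
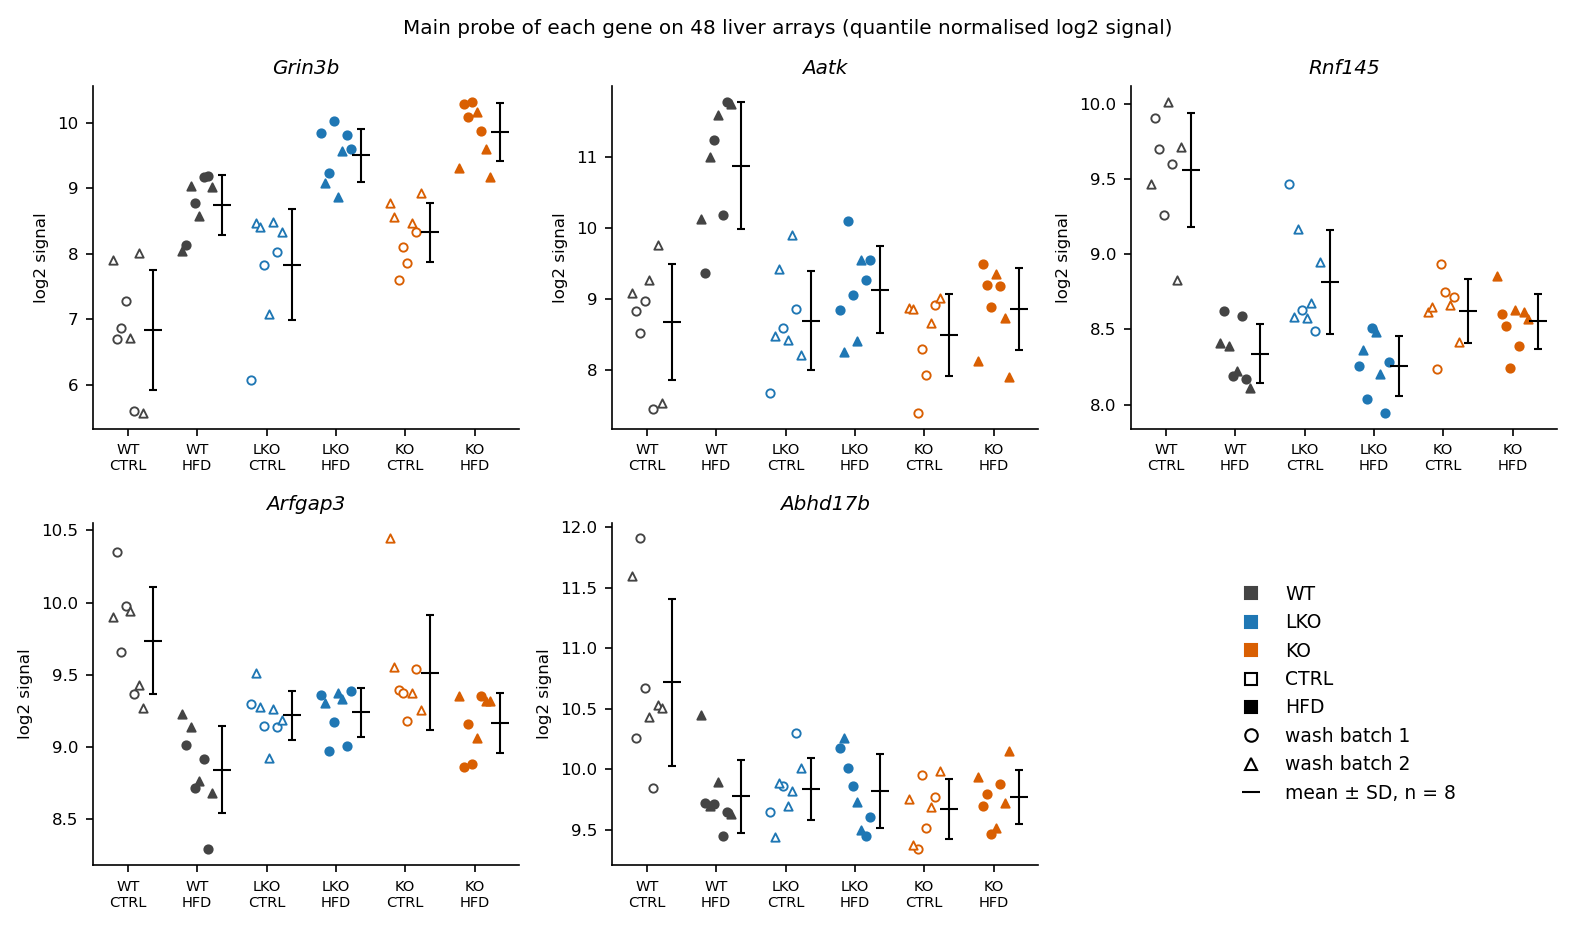
Quantile normalised log2 signal of the main probe of each gene (vertical axes, with a separate range for each gene) in the 6 genotype and diet groups (horizontal axes); each point is 1 mouse, open for CTRL and filled for HFD, a circle for wash batch 1 and a triangle for wash batch 2, and the black bar is the mean ± SD of 8 mice. Grin3b stepped up with HFD in every genotype, Aatk had its highest mean in WT HFD, and Rnf145, Arfgap3 and Abhd17b were highest in WT CTRL.

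Grin3b, the NMDA receptor subunit, had higher signal on HFD in each genotype, and the range of HFD mice lay above the range of CTRL mice in all 3. In WT mice the log2 signal ran from 5.57 to 8.01 on CTRL (median 6.79) and from 8.04 to 9.19 on HFD (median 8.90). On CTRL, 6 of the 8 WT arrays were well above background, so the low end of that group lies near the floor of the assay. Pparα hep-/- mice had values of 6.07 to 8.48 (median 8.17) on CTRL and 8.87 to 10.02 (median 9.58) on HFD. Pparα-/- mice had 7.60 to 8.93 (median 8.39) on CTRL and 9.18 to 10.32 (median 9.98) on HFD. Each of the 8 HFD mice of each genotype exceeded the mean of its own CTRL group. The fitted rise was 1.41 ± 0.23 (SE) in Pparα hep-/- mice, which is 2.65-fold (adjusted p = 2.11e-05, limma), and 1.44 ± 0.24 in Pparα-/- mice, which is 2.71-fold (adjusted p = 2.51e-05, limma). The 2 rises differed by 0.03 (95% interval -0.63 to 0.69, adjusted p = 0.98, limma). The fitted difference in WT was 1.84 ± 0.27, which exceeded that of Pparα hep-/- mice by 0.43 (95% interval -0.28 to 1.14) and that of Pparα-/- mice by 0.40 (95% interval -0.32 to 1.12), both given as a description.

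The size of the Grin3b rise varied with the wash batch. Among the arrays of wash batch 1 it was 1.91 in Pparα hep-/- and 2.08 in Pparα-/- mice, and among those of wash batch 2 it was 1.07 and 0.92. The direction held in both batches, the rises did not pass the test within wash batch 2 alone (adjusted p = 0.0573 and 0.1, limma), and a part of the wash in the difference was not tested. The lowest Pparα hep-/- CTRL value, 6.07 in replicate 1, came from the array with the lowest weight of all, 0.189. That array and WT CTRL replicate 6, where Grin3b was at 5.59, had the highest log2 summed cholangiocyte marker signal of all arrays, 11.03 and 10.91, and the next array was at 9.74. Over the 48 arrays, deviations of Grin3b from the group means had r = -0.483 with these markers, as a description, 0.391 with the neuron and glia markers and 0.323 with the adipocyte markers. The median log2 cholangiocyte sum on CTRL and HFD was 8.825 and 9.18 in Pparα hep-/- and 8.57 and 8.57 in Pparα-/- mice. The neuron and glia sum was 10.93 and 11.30 in Pparα hep-/- and 11.30 and 11.49 in Pparα-/- mice. The adipocyte sum was 8.16 and 8.43 in Pparα hep-/- and 8.04 and 8.19 in Pparα-/- mice. All these ranges overlapped between diets, and a part of the cell mixture was not tested. Leaving out single arrays kept the Grin3b rise between 1.29 and 1.52 in Pparα hep-/- and between 1.36 and 1.54 in Pparα-/- mice.

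Across the 6 groups, Grin3b was ordered from Pparα-/- HFD (mean 9.85 ± 0.44, SD, n = 8) through Pparα hep-/- HFD (9.50 ± 0.41), WT HFD (8.74 ± 0.45), Pparα-/- CTRL (8.33 ± 0.45) and Pparα hep-/- CTRL (7.83 ± 0.85) to WT CTRL (6.83 ± 0.92). The ranges of every pair of neighbours in that order overlapped. Only the steps from Pparα hep-/- HFD to WT HFD and from Pparα hep-/- CTRL to WT CTRL were larger than the pooled SD of the pair. Both deleted genotypes thus had higher mean signal than WT on the same diet. As a description, the fitted excess over WT was 1.06 in Pparα hep-/- and 1.33 in Pparα-/- mice on CTRL, and 0.63 and 0.93 on HFD. Between the deleted genotypes the difference did not pass the test, with 0.28 on CTRL (95% interval -0.21 to 0.77, adjusted p = 0.452, limma) and 0.31 on HFD (95% interval -0.13 to 0.75, adjusted p = 0.31, limma).

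Over all probes, 20.2% were called for diet in Pparα hep-/- mice and 24.8% in Pparα-/- mice. Of the 5 main probes, 2 were called in each, Grin3b and Rnf145 in Pparα hep-/- and Grin3b and Arfgap3 in Pparα-/- mice. Aatk and Abhd17b were called in neither. The genes were chosen on mice of another genotype, and 5 genes are too few to set their share against these percentages.

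**Figure D2:**
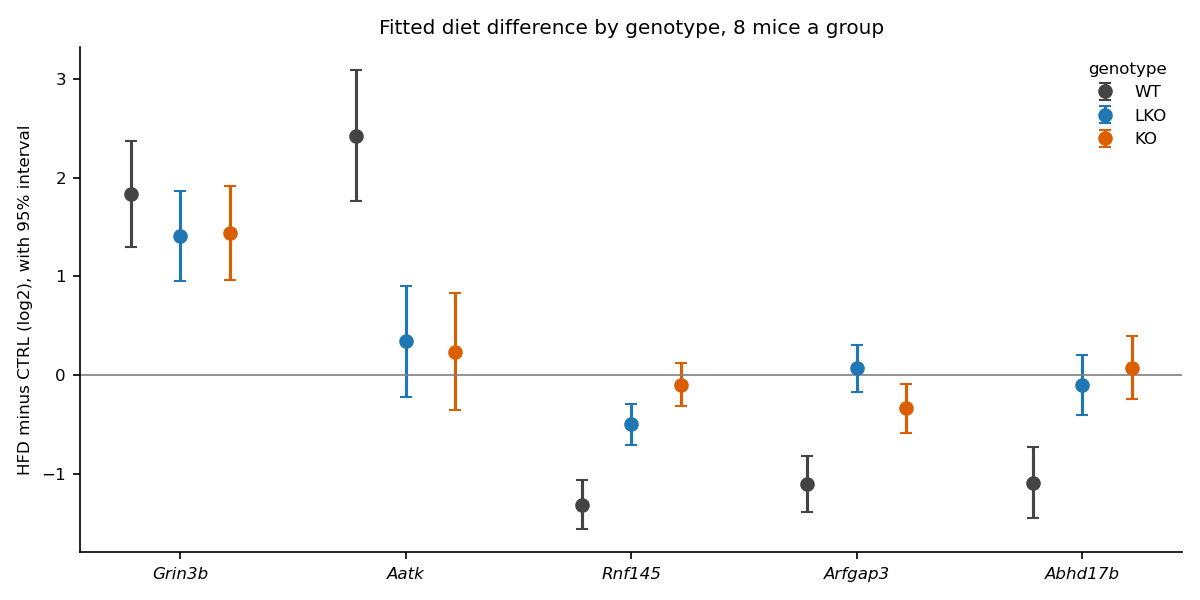
Fitted HFD minus CTRL difference of the main probe of each gene (log2, vertical axis) in WT, Pparα hep-/- (LKO) and Pparα-/- (KO) mice, with 95% intervals from the fit over 48 arrays, 8 mice a group; the WT points chose the genes. For Grin3b the 3 intervals overlap (1.84, 1.41 and 1.44), while for Aatk the WT point stands at 2.43 and the others at 0.34 and 0.24.

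Aatk, the LMTK1 kinase, had its highest mean in WT HFD, where the range still overlapped that of other groups. In WT mice its log2 signal was 7.46 to 9.76 on CTRL (median 8.91) and 9.36 to 11.77 on HFD (median 11.11). The ranges overlapped through 1 mouse, WT HFD replicate 2 at 9.36. Aatk in Pparα hep-/- mice was 7.68 to 9.90 on CTRL (median 8.54), and 8.26 to 10.098 on HFD (median 9.16). Aatk in Pparα-/- mice was 7.40 to 9.01 on CTRL (median 8.76) and 7.90 to 9.49 on HFD (median 9.04). Values of the CTRL and HFD mice were intermingled in both deleted genotypes.

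The fitted Aatk difference in WT was 2.43 ± 0.33, or 5.37-fold. It did not pass the test in Pparα hep-/- mice, at 0.34 (95% interval -0.22 to 0.90, adjusted p = 0.413, limma), nor in Pparα-/- mice, at 0.24 (95% interval -0.35 to 0.83, adjusted p = 0.595, limma). The intervals allow a difference of up to 0.90 and 0.83 in these mice. The Pparα-/- difference was 0.86 in wash batch 1 and -0.26 in wash batch 2, so its sign was not shared by the batches, whereas in WT it was 2.50 and 2.32. In Pparα hep-/- mice it was 0.72 and 0.06. On leaving out single arrays it ran from 0.20 to 0.55 in Pparα hep-/- and from 0.14 to 0.40 in Pparα-/- mice. WT HFD had the highest mean, 10.87 ± 0.89 (SD, n = 8). The means of the other 5 groups, from 9.13 in Pparα hep-/- HFD to 8.50 in Pparα-/- CTRL, stepped down by less than their pooled SD at each place.

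The sums of several cell type markers moved with Aatk among mice of a group. In WT HFD, the 6 mice with a log2 summed adipocyte marker signal of 13.91 to 15.52 had Aatk of 10.17 to 11.77. Replicates 1 and 2, with summed markers of 8.73 and 8.75, had Aatk at 10.13 and 9.36, the lowest of the group, although the next, replicate 6 at 10.17, was close to replicate 1. In the other 5 groups the summed adipocyte signal lay between 7.79 and 10.27. The sum in those 6 mice was nearly all Cfd, since Lep was at a median of 7.45 and Retn at 5.83 in that group, and Adipoq and Plin1 were well above background on 0 of the 8 WT HFD arrays. The Kupffer cell and macrophage markers gave a log2 summed signal of 15.61 and 15.07 in WT HFD replicates 2 and 6, which had low Aatk, and of 13.07 to 14.41 in the other 6 mice of that group. Over the 48 arrays, deviations of Aatk from the group means had r = -0.533 with the summed Kupffer cell and macrophage markers, 0.466 with the adipocyte markers and -0.382 with the cholangiocyte markers, as a description. The r with the other 5 lists lay between -0.271 and 0.106, and the part of these cells in the Aatk difference was not tested. In bulk liver RNA, more cells of a type and more RNA per cell cannot be told apart. The 6 neuron and glia markers that were tested gave a log2 summed signal of 10.55 to 11.99 over all arrays.

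**Figure D3:**
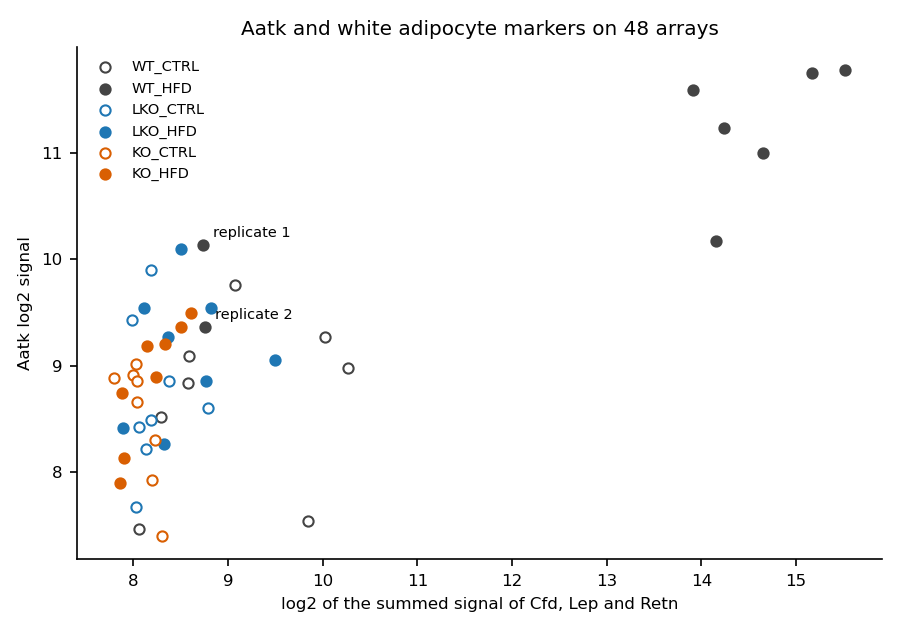
Aatk log2 signal (vertical axis) against the log2 of the summed signal of the white adipocyte markers Cfd, Lep and Retn (horizontal axis), 1 point per mouse in 6 groups; replicates 1 and 2 of WT HFD are labelled. The 6 WT HFD mice to the right lie at 13.91 to 15.52 on the horizontal axis, and the other 2 lie with the remaining groups.

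Rnf145, the sterol-sensing ubiquitin ligase, was lowest on HFD in WT and Pparα hep-/- mice. In WT mice its log2 signal was 8.83 to 10.02 on CTRL (median 9.65) and 8.11 to 8.63 on HFD (median 8.31), with no overlap. Rnf145 in Pparα hep-/- mice was 8.49 to 9.47 on CTRL (median 8.65) and 7.94 to 8.51 on HFD (median 8.27). These ranges touched only at their ends, with the highest HFD mouse at 8.51 and the lowest CTRL mouse at 8.49. Rnf145 in Pparα-/- mice was 8.24 to 8.93 on CTRL (median 8.65) and 8.25 to 8.86 on HFD (median 8.59), and the values were intermingled.

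The fitted Rnf145 signal in Pparα hep-/- mice fell by 0.50 ± 0.10 (1.41-fold, adjusted p = 0.000653, limma), with all 8 HFD mice below the CTRL mean and differences of -0.47 and -0.48 in the 2 wash batches, which did not pass the test in either batch alone (adjusted p = 0.0989 and 0.0542). Deviations of Rnf145 from the group means had r = 0.358 with the summed stellate cell markers and 0.356 with the cholangiocyte markers over the 48 arrays, as a description. The median log2 summed signal on CTRL and HFD in Pparα hep-/- mice was 14.95 and 15.39 for stellate cell markers and 14.38 and 14.71 for Kupffer cell and macrophage markers, with overlapping ranges, and a part of these cells was not tested. The difference in Pparα-/- mice was -0.10 (95% interval -0.32 to 0.12, adjusted p = 0.561, limma). The 2 responses differed by 0.40 (95% interval 0.10 to 0.71), which did not pass correction over all probes (adjusted p = 0.138, limma). Of all probes, 3.42% were called for such a difference between the responses, and 0 of the 5 main probes. At an unadjusted p under 0.05, 2 of the 5 passed, Rnf145 and Arfgap3, and so did 16.7% of all probes. The fitted WT difference was -1.31 ± 0.12, or 2.49-fold lower on HFD, and its distance from the response of Pparα hep-/- mice was 0.81 on the log2 scale and from that of Pparα-/- mice 1.22, as a description.

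On CTRL, 25.2% of all probes were called between the deleted genotypes and 0 of the 5 main probes. At an unadjusted p under 0.05, Arfgap3 alone of the 5 passed, and so did 35% of all probes. On HFD, 30.6% of all probes were called and 1 of the 5, Rnf145, which was 0.32 ± 0.10 higher in Pparα-/- than in Pparα hep-/- mice (1.25-fold, adjusted p = 0.0113, limma). Without array weights this difference had an adjusted p of 0.121, and within wash batch 1 and 2 alone 0.184 and 0.133. The summed endothelial cell markers on HFD ran from 13.53 to 13.80 in Pparα-/- and from 12.78 to 13.30 in Pparα hep-/- mice on the log2 scale, without overlap, and their part in the difference was not tested. The order of the Rnf145 means ran from WT CTRL (9.56 ± 0.38, SD, n = 8) through Pparα hep-/- CTRL (8.82 ± 0.35), Pparα-/- CTRL (8.62 ± 0.21), Pparα-/- HFD (8.55 ± 0.18) and WT HFD (8.34 ± 0.20) to Pparα hep-/- HFD (8.26 ± 0.20). The step below WT CTRL was the largest, 0.74, against a pooled SD of 0.36. On HFD the signal in Pparα hep-/- and WT mice differed by -0.01 (95% interval -0.23 to 0.21).

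The other Rnf145 probes differed from the main probe in their diet differences and calls. At A_55_P2500208, well above background on 48 of 48 arrays, WT mice had 6.89 to 7.69 on CTRL (median 7.33) and 6.65 to 7.22 on HFD (median 6.87), and the ranges overlapped. Its fitted diet difference was -0.48 ± 0.09 in WT and 0.02 in Pparα hep-/- mice (95% interval -0.14 to 0.17, adjusted p = 0.903, limma). It fell by 0.22 in Pparα-/- mice (adjusted p = 0.0464, limma). That call was lost without array weights (adjusted p = 0.179, limma), without the wash term (0.0684) and without the filter (0.127). Leaving out any 1 of 12 of the 16 arrays of that contrast also lost it, with a highest adjusted p of 0.187. In wash batch 1 alone the probe differed by -0.02. On CTRL it was 0.32 ± 0.08 higher in Pparα-/- than in Pparα hep-/- mice (adjusted p = 0.00321, limma), with all 8 Pparα-/- mice above the Pparα hep-/- mean, a call that was lost within wash batch 1 alone (0.23, adjusted p = 0.434). The summed endothelial cell markers on CTRL also did not overlap, at 13.002 to 13.55 in Pparα-/- and 12.57 to 12.90 in Pparα hep-/- mice on the log2 scale, and their part in the call was not tested. The main probe gave -0.08 for that contrast (95% interval -0.30 to 0.15). The 2 probes, assigned to different transcripts of the gene, hence did not share their calls in the deleted genotypes.

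At A_55_P2618144 the signal was well above background on 7 of 48 arrays, 4 of them WT CTRL, and it passed the filter only through that group. Its log2 signal was 5.45 to 6.03 in WT CTRL and 5.13 to 5.78 in WT HFD. A single Pparα hep-/- HFD mouse, replicate 8, was at 8.62, where the next highest of its group was at 5.39.

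**Figure D4:**
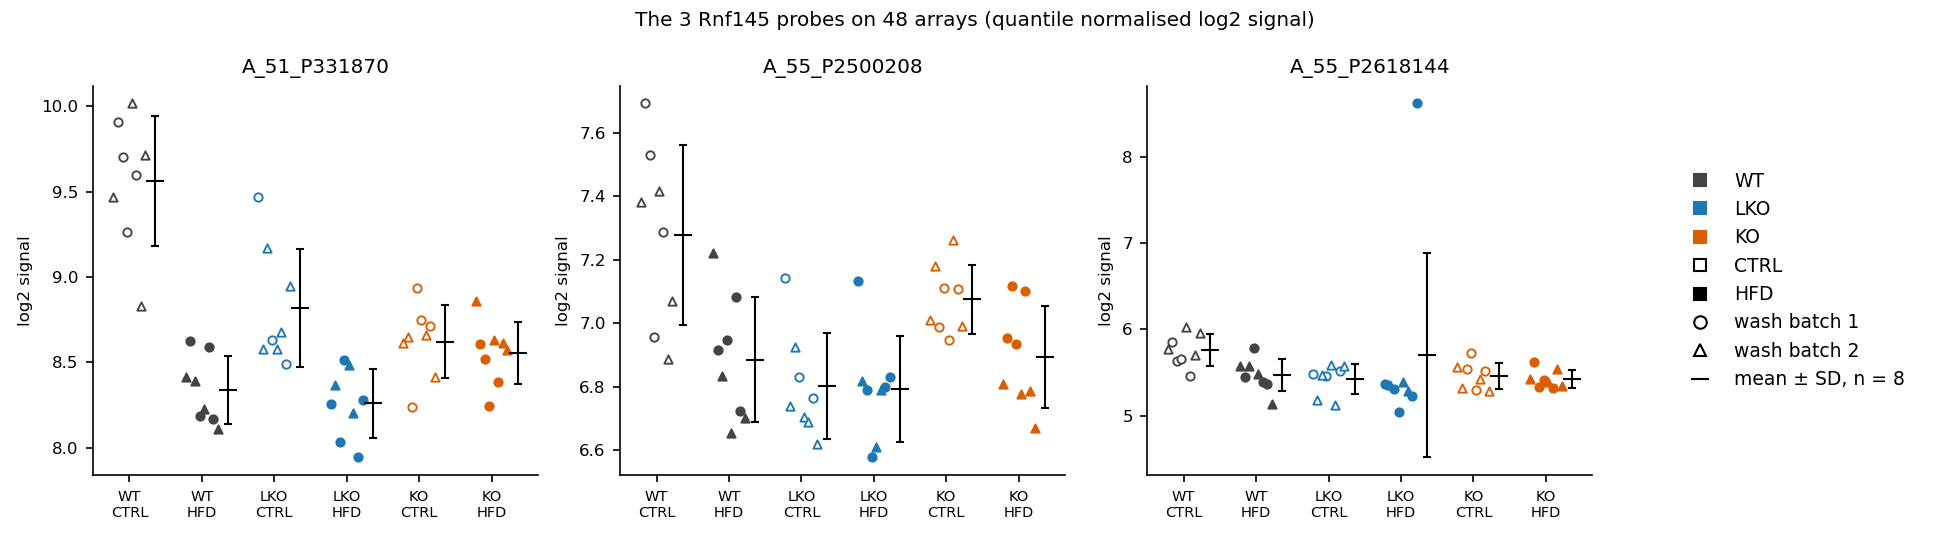
Quantile normalised log2 signal of the 3 Rnf145 probes (vertical axes, with a separate range for each probe) in the 6 groups; each point is 1 mouse, open for CTRL and filled for HFD, shaped by wash batch, and the black bar is the mean ± SD of 8 mice. WT CTRL has the highest median at the 2 probes that were well above background on all 48 arrays, and the single Pparα hep-/- HFD mouse at 8.62 stands alone at A_55_P2618144.

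Arfgap3, the ARF1-directed Golgi protein, was lower on HFD in WT mice without overlap, at 9.27 to 10.35 on CTRL (median 9.78) and 8.29 to 9.23 on HFD (median 8.84). Arfgap3 in Pparα hep-/- mice was 8.92 to 9.51 on CTRL (median 9.22) and 8.97 to 9.39 on HFD (median 9.32), and the groups overlapped over nearly their whole ranges. Arfgap3 in Pparα-/- mice was 9.18 to 10.45 on CTRL (median 9.38) and 8.86 to 9.35 on HFD (median 9.24). The 10.45 of replicate 1 stood apart from the next Pparα-/- CTRL mouse, which was at 9.55.

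The fitted Arfgap3 difference was 0.07 in Pparα hep-/- mice (95% interval -0.17 to 0.31, adjusted p = 0.711, limma). It fell by 0.34 ± 0.12 in Pparα-/- mice (1.26-fold, adjusted p = 0.0405, limma), with all 8 HFD mice below the CTRL mean and differences of -0.32 and -0.36 in the 2 wash batches, which did not pass the test in either batch alone (adjusted p = 0.225 and 0.215). In the same mice the median log2 summed signal on CTRL and HFD was 14.36 and 15.06 for Kupffer cell and macrophage markers, 14.96 and 15.57 for stellate cell markers and 13.31 and 13.64 for endothelial cell markers, with overlapping ranges, and a part of these cells was not tested. Deviations of Arfgap3 from the group means had r between -0.299 and 0.246 with the 8 marker lists over the 48 arrays, as a description. The call was lost without array weights (adjusted p = 0.0843), without the wash term (0.0712), without the filter (0.0666), with median centring (0.0708), and on leaving out Pparα-/- CTRL replicate 1, 4 or 7 or Pparα-/- HFD replicate 2, 4 or 5, with -0.39 to -0.21 over the single arrays left out and a highest adjusted p of 0.169. The 2 responses differed by -0.41 (95% interval -0.76 to -0.06, adjusted p = 0.199, limma). On CTRL, Arfgap3 was 0.33 higher in Pparα-/- than in Pparα hep-/- mice, just outside the threshold (adjusted p = 0.0527, limma).

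In WT the fitted Arfgap3 signal was 2.15-fold (SE 0.14 on the log2 scale) lower on HFD, at -1.41 in wash batch 1 and -0.82 in wash batch 2. WT mice held both ends of the order of group means, 9.74 ± 0.37 (SD, n = 8) on CTRL and 8.84 ± 0.30 on HFD, with the 4 other groups between 9.51 and 9.16. Of the 5 steps in that order, only the last, from Pparα-/- HFD to WT HFD, was larger than the pooled SD. On HFD the fitted Arfgap3 signal in Pparα hep-/- mice exceeded that in WT by 0.53, as a description. The genes were chosen on the WT diet difference, which favours a low WT HFD mean here, so this value sets no gene apart.

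Abhd17b, the depalmitoylating hydrolase, had its highest mean in WT CTRL. There its log2 signal was 9.85 to 11.91 (median 10.51), the widest range of any group for this gene. In WT HFD it was 9.45 to 10.45 (median 9.71), and the ranges overlapped. The highest WT HFD mouse was replicate 1 at 10.45, the next was at 9.90, and the lowest WT CTRL mouse was at 9.85. Abhd17b in Pparα hep-/- mice was 9.44 to 10.30 on CTRL (median 9.84) and 9.45 to 10.26 on HFD (median 9.80). Abhd17b in Pparα-/- mice was 9.34 to 9.99 on CTRL (median 9.72) and 9.46 to 10.15 on HFD (median 9.76). These 4 groups overlapped with one another over most of their ranges.

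The fitted Abhd17b difference was -0.10 in Pparα hep-/- mice (95% interval -0.40 to 0.20, adjusted p = 0.686, limma) and 0.08 in Pparα-/- mice (95% interval -0.24 to 0.39, adjusted p = 0.772, limma). In WT it was -1.09 ± 0.18, or 2.12-fold lower on HFD. On CTRL, as a description, the signal was lower than in WT by 0.97 in Pparα hep-/- and by 1.13 in Pparα-/- mice on the log2 scale. On HFD it differed from WT by 0.02 (95% interval -0.30 to 0.33) and 0.04 (95% interval -0.28 to 0.35). The step from WT CTRL to the next group was 0.88 against a pooled SD of 0.52, and the other 4 steps were at most 0.0976. Over the 48 arrays, deviations of Abhd17b from the group means had r = 0.489 with the summed hepatocyte markers and -0.493 with the summed stellate cell markers, as a description, and a part of the cell mixture was not tested.

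The genes whose signal followed each of the 5 most closely over the 48 arrays differed from gene to gene. These are Pearson correlations of log2 values with the wash batch mean removed, given as a description, and the arrays share their groups, so the correlation of deviations from group means is given second. For Grin3b they included Cd59a, a complement inhibitor (0.921 and 0.737), and Fggy (0.884 and 0.682). For Aatk they were Fcgrt, the neonatal Fc receptor (0.836 and 0.691), Mmd (0.831 and 0.638) and Tlcd2 (0.806 and 0.572). Tlcd2 was 1.08 higher on HFD in WT mice and stood at -0.03 and -0.04 in the deleted genotypes, whereas Mmd was higher by 0.79 in WT and by 0.27 and 0.16 in the others.

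For Rnf145 the closest were B4galt5, a lactosylceramide synthase (0.857 and 0.618), Klf16 (0.824 and 0.542) and Tmem50b (0.806 and 0.636). Arfgap3 was followed by Slc39a7, a zinc transporter of the early secretory pathway (0.815 and 0.728), Gfpt1, the entry enzyme of hexosamine synthesis (0.807 and 0.668) and Bhlha15, a transcription factor of secretory cells (0.799 and 0.718). Bhlha15 differed by -1.71 on HFD in WT, by -0.25 in Pparα hep-/- and by -1.16 in Pparα-/- mice. Abhd17b was followed by Arfip2, an ARF-binding protein (0.820 and 0.715), Ripk1 (0.803 and 0.657) and Larp4b (0.801 and 0.654). Among the 5 genes themselves, the strongest pair within groups was Grin3b with Aatk (r = 0.706), followed by Grin3b with Rnf145 (-0.437), Aatk with Rnf145 (-0.399) and Rnf145 with Arfgap3 (0.318). The other 6 pairs lay between -0.092 and 0.142. These correlations and those with the cell type markers count every array alike, without the array weights. Grin3b and Aatk were both lowest of their group in Pparα hep-/- CTRL replicate 1 and in Pparα-/- CTRL replicate 3. The weights of these arrays were low, 0.189 and 0.419, and their part in the r of 0.706 was not tested.

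Genes of related function were taken as 5 lists. In the sterol list around RNF145, all 12 genes were tested. In Pparα hep-/- mice 0 rose and 5 fell on HFD (median -0.20 against -0.01 for all probes), and in Pparα-/- mice 2 rose and 4 fell (median -0.15 against -0.02). Over all probes, called in either direction, the shares were 20.2% and 24.8%. Scap fell by 0.65 in Pparα hep-/- mice (adjusted p = 1.37e-08, limma). Insig1, which encodes an ER retention factor of SCAP, fell by 1.04 and 0.80 in the 2 deleted genotypes (adjusted p = 0.000159 and 0.00313, limma). Insig2 was lower in Pparα-/- than in Pparα hep-/- mice on both diets, by 1.11 on HFD (adjusted p = 1.29e-05, limma), and Srebf1 was lower by 0.58 on HFD (adjusted p = 0.00683, limma). In WT mice the lowest difference of the list was the -0.93 of Syvn1.

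The NMDA receptor list held 7 other genes, and Grina among them was listed by its symbol and does not encode a receptor subunit. Of the 7, Grin1, Grin2a and Grin3a did not pass the filter on low signal. The remaining 4 gave 0 calls for diet in either deleted genotype, where 20.2% and 24.8% of all probes were called, with fitted differences of -0.10 to 0.25 in Pparα hep-/- and -0.21 to 0.54 in Pparα-/- mice. Grin2b and Grin2c were well above background on only 6 and 18 of 48 arrays. Between the deleted genotypes on CTRL, Grin2c and Grin2d were higher in Pparα-/- mice by 0.46 and 0.37, and Grina was lower by 0.30, in a contrast that called 25.2% of all probes. The nearest kinases to Aatk, Lmtk2 and Lmtk3, had diet differences of -0.07 and 0.11 in Pparα hep-/- mice, neither of which passed the test, and of 0.00 and 0.18 in WT. The Lmtk3 probe was well above background on only 17 of 48 arrays, so its differences lie near the floor of the assay. Of the 5 genes of that list, 1 was called for diet, Cdk5, which fell by 0.14 in Pparα hep-/- mice (adjusted p = 0.0282, limma), beside 20.2% of all probes.

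In the list of the ARF1 cycle and the coatomer, all 19 genes were tested. On HFD 1 rose and 2 fell in Pparα hep-/- mice, and 1 rose and 3 fell in Pparα-/- mice, beside 20.2% and 24.8% of all probes called in either direction. Gbf1, an ARF1 activator, fell by 0.30 and Cope, a coatomer subunit, by 0.20 in Pparα-/- mice. Arfgap1, another ARF1-directed GTPase-activating protein, was lower in Pparα-/- than in Pparα hep-/- mice by 0.41 on CTRL (adjusted p = 3.56e-06, limma) and by 0.44 on HFD (adjusted p = 5.83e-08, limma), and Arfgap2, the close paralog of Arfgap3, was higher by 0.17 on HFD. In WT mice the 19 genes had a median diet difference of -0.13 and a range of -0.32 to 0.35. Of the 8 other depalmitoylases, 2 rose and 1 fell in Pparα hep-/- mice, and 1 rose in Pparα-/- mice, beside the same shares of all probes. Abhd17a was at -0.07 and 0.03 in these mice, neither of which passed the test, and Abhd17c rose by 0.14 in Pparα hep-/- mice (adjusted p = 0.0456, limma). Ppt1, a lysosomal thioesterase, was higher in Pparα-/- than in Pparα hep-/- mice by 0.85 on CTRL, and the mitochondrial Abhd10 was lower by 0.64. In WT mice Abhd17a and Abhd17c stood at 0.12 and -0.09.

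The RefSeq table of promoters (GRCm38.p6, the 300 bases around each annotated start) held 10 promoters of the 5 genes, 4 of Aatk, 3 of Rnf145 and 1 of each of the others. They were searched on both strands for the palindrome CACGTG, the core bound by SREBP and other basic helix-loop-helix factors, and for the direct repeats DR1 and DR4, the forms bound by PPARα and LXR with their partner RXR. CACGTG occurred in 2 of the 10 promoters and in 7.15% of all 32851. DR1 and DR4 occurred in 0 of the 10 and in 0.222% and 0.0822% of all, and the absence says only that these letters are not in these windows. The search was chosen after the diet values had been seen, and neither match overlapped another of the motifs searched. Both matches are shown with the motif in capitals and the GRCm38.p6 position of the printed 30 bases.
Rnf145, chr11:44518714-44518743, plus strand: agtgagcgcgaaCACGTGtcagaatggctg
Aatk, chr11:120041862-120041891, minus strand: aggaggcagagtCACGTGgcatcccccatc

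The Rnf145 match began 230 bases and the Aatk match 98 bases before the annotated start of 1 of several promoters of each gene. A match is a description of the sequence, and binding was not measured on these arrays.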

How the data were processed

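Liver RNA of 48 mice was labelled with Cy3 and hybridised to 1-colour Agilent mouse arrays. The authors deposited the Feature Extraction 10.10.1.1 output of each array, and the spot intensity used here is the median pixel intensity, which per the file headers was neither background subtracted nor normalised. The authors also deposited a table of 32816 probes on the log2 scale, after their own filter, a correction for the washing bath and quantile normalisation. It served as an alternative (r of 0.9994 to 0.9995 per array with the values used here).

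Control spots and spots marked as outliers were left out, log2 values of the spots of a probe were averaged, and 33323 probes were kept if 4 or more arrays in any group marked them as well above background, then quantile normalised together. In R 4.3.3, limma 3.58.1 was fitted over the 48 arrays with group means, array weights and the wash batch as a covariate. A probe with a missing value (195 values in all) was fitted on its remaining arrays, without imputation, and its variance was moderated together with all others. Adjusted p is Benjamini-Hochberg over the 33323 probes within a contrast, and a probe was called at 0.05 or less. Changes are fitted log2 differences with SE or 95% intervals, while levels are normalised log2 signals that compare groups within a probe and not probes with each other. A gene's main probe is the tested probe with the highest mean signal, and related genes were named where called, up to 5 a list, beside the closest family members. Some genes that this rule names are not reported here. The fit was tested on simulated data.

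The genes, the lists and the tests were chosen with earlier results of these data known. The 8 mice of a group are the replicates. Alternatives were no array weights, no wash term, slide or replicate number as a block, no filter or a stricter one, normexp background correction with an offset of 50, processed signal scaled at the 75th percentile, median centring, the authors' table, each wash batch alone, and leaving out each array. The files give probe positions in mm9, which were used as they stand. Replicate numbers were checked for pairing over 120 pairs of same-numbered mice, and 50 correlations were over 0.1. Differently numbered mice were not set beside them, so the check cannot decide on pairing. Same-numbered mice were not treated as pairs, with replicate number as a block as an alternative.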

Additional observations from a re-analysis of the deposited data

Results flagged for a closer look

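Each group of 8 mice was examined for a highest or lowest mouse whose gap to the next exceeded Dixon's 95% critical value as a share of the group's range, which chance alone passes in about 1 in 20 groups. Of 42 groups, 4 had such a mouse. Abhd17b in WT HFD had replicate 1 at 10.45 log2 signal, where the next mouse was at 9.90. Arfgap3 in Pparα-/- CTRL had replicate 1 at 10.45, where the next was at 9.55, and without this mouse the Arfgap3 diet call in Pparα-/- mice was lost. The Rnf145 probe A_55_P2500208 in Pparα hep-/- HFD had replicate 1 at 7.13, where the next was at 6.83. The Rnf145 probe A_55_P2618144 in Pparα hep-/- HFD had replicate 8 at 8.62, where the next was at 5.39, with a raw intensity of 441 against a group median of 40.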

How the results depend on the processing

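Among the 5 main probes, the count called for diet in Pparα hep-/- mice was 2, and it was 1 within wash batch 1 and 0 within wash batch 2. The share of all probes called was 20.2%, and 3.12% and 5.24% within these batches. In Pparα-/- mice the count was 2, and it became 1 without array weights, without the wash term, without the filter, with median centring and within wash batch 1, and 0 within wash batch 2, with 1 to 2 on leaving out single arrays. Of all probes 24.8% were called, and 12.1% without array weights, 20.5% without the wash term and 10.6% without the filter. With median centring the share was 29.3%, and within wash batch 1 and 2 it was 6.18% and 8.46%. Between the deleted genotypes on CTRL the count was 0, became 1 (Arfgap3) with the stricter filter, and was 0 to 1 on leaving out single arrays (1 without Pparα-/- CTRL replicate 5, 6 or 8 or Pparα hep-/- CTRL replicate 2). The share of all probes called there was 25.2%, and 28.1% with the stricter filter. On HFD the count was 1 and became 0 without array weights and within either wash batch. The share of all probes was 30.6%, and 18.1% without array weights and 13.9% and 17.4% within wash batch 1 and 2. A wash batch alone holds 3 to 5 mice a group. In WT, 5 main probes had a difference of at least 1 on the log2 scale in size, without array weights 3 had, and 4 to 5 had on leaving out single arrays. Of all probes 0.882% had such a difference. The genes were chosen for a large difference in WT, so their count only describes that choice and is not set against this share. Leaving out single arrays did not move the counts for diet in Pparα hep-/- mice (2), between the deleted genotypes on HFD (1) or for the difference between the responses (0). Leaving out WT HFD replicates 1 and 2, whose values are given with the adipocyte markers, was chosen after seeing the data. No call of the main fit at a probe of the 5 genes changed sign, and the calls of the related genes were not followed through the alternatives. The groups were not paired by mouse number, which the check of same-numbered mice could not decide (correlations of -0.456 to 0.694, median 0.0455). With replicate number as a block, 1 main probe instead of 0 was called between the deleted genotypes on CTRL (Arfgap3, adjusted p = 0.0363, limma), beside 24.2% of all probes. The count in WT was 4 instead of 5, and the other 4 counts were the same. The probe A_55_P2618144 gave no value with the stricter filter. Its WT difference, -0.34, was -1.18 on the processed signal, and the cause was not tested. The other scalings moved the median of all probes by under 0.1. Signal near background limits Grin3b in WT CTRL and A_55_P2618144 throughout.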
